A study of Homo sapiens with 4 samples.

Results

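The genes described here are the 9 that carry MHC class I antigen presentation: the heavy chains *HLA-B*, *HLA-C*, *HLA-E* and *HLA-F*, the light chain *B2M*, the peptide transporter subunits *TAP1* and *TAP2*, and the immunoproteasome subunits *PSMB8* and *PSMB9*. They were chosen by name, out of 57820 genes in the table, and the transcript counts of each gene ID were summed. The cells were SK-N-SH, an established human neuroblastoma line. The 2 vector control libraries came from cells given an empty lentivirus vector, and their genotype label reads wild type. The 2 *RP5-998N21.4* OE libraries came from cells transduced with a lentivirus that carries the lncRNA *RP5-998N21.4* under the EF1a promoter, which is active in most cell types. The labels give replicates 1 and 2 of each group without naming separate cultures, so every p-value below measures the spread between these libraries, which may be technical. The study asked which transcripts change when the lncRNA is overexpressed, with immune defense genes as its subject. The comparison here addresses that question for the class I pathway.

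Class I molecules show peptides from inside the cell to cytotoxic T cells and to natural killer cells. Proteasomes cut proteins into peptides, the TAP1 and TAP2 transporter carries the peptides into the endoplasmic reticulum, and a loading complex places them on a heavy chain that is paired with B2M. Interferons raise the transcription of the whole pathway through factors such as IRF1 and NLRC5. Neuroblastoma cells are known for low class I on their surface. All heavy chain genes, both TAP genes and both immunoproteasome genes lie in the MHC on chromosome 6, whereas *B2M* lies on chromosome 15.

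The upstream sequences were searched for known regulatory sites. Of those below, the IRF core and the interferon gamma-activated site are the ones by which interferon acts. RefSeq promoters (GRCh38.p14, from 250 bases before to 50 bases after the start site) were found for 8 of the 9 members. *HLA-E* was not matched. The IRF core AANNGAAA, searched on both strands, was in 6 of the 8 promoters, and in 23.2% of 27305 RefSeq promoters of the same length. The CCAAT box, CCAAT on either strand, was also in 6 of the 8, against 35.7% of all promoters. The *TAP1* and *PSMB9* windows overlap, and the same CCAAT site in the shared bases was counted for both. The interferon gamma-activated site TTCNNNGAA was in 0 of the 8, against 7.88% of all. The enhancer A core GGATTCCC, an NF-kappaB type site, was in 1 of the 8, *HLA-B*, against 1.04% of all. These letters mark matches only. The windows of 30 bases below, 5′ to 3′ on the strand of each gene, are shown because they hold the IRF core matches, which are in capitals. A match on the other strand appears as its reverse complement.
*HLA-B*, chr6:31357316-31357345, minus strand: actcccctgagTTTCACTTcttctcccaac
*HLA-C*, chr6:31272225-31272254, minus strand: actcccctgagTTTCACTTctcccaacctg
*HLA-F*, chr6:29723267-29723296, plus strand: tctccccagagTTTCTCTTtctctcccaac
*B2M*, chr15:44711367-44711396, plus strand: ctctaagaAAAGGAAACTGAAAacgggaaa
*TAP1*, chr6:32853817-32853846, minus strand: gcggccgcTTTCGATTTCGCTTtcccctaa
*TAP2*, chr6:32838780-32838809, minus strand: ggctggggAAGCGAAAGCGAAAgctgcccg
The match began 155 bases before the start site in *HLA-B*, 151 in *HLA-C* and 156 in *HLA-F*, so the 3 heavy chain genes held it at nearly the same place. In *TAP1* it began 134 bases and in *TAP2* 62 bases before the start. The *PSMB8* and *PSMB9* windows held no match. The start sites of *TAP1* and *PSMB9* lie 488 bases apart on opposite strands in RefSeq.

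*B2M* is printed with its 250 upstream bases, because it was the only member with counts. In chr15:44711267-44711516 (GRCh38.p14, plus strand), the capitals mark the overlapping IRF core matches AAAGGAAA, from base −142, and AACTGAAA, from base −136, and the reversed CCAAT box ATTGG, from base −49.
*B2M*: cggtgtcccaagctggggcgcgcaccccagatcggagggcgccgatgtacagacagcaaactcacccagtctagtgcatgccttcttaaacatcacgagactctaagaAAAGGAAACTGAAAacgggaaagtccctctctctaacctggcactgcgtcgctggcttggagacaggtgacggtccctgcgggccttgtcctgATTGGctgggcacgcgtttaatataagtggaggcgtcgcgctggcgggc

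Library totals ran from 23785164 to 28307591 counts. *RP5-998N21.4* itself had 32 and 33 counts in vector control libraries and 2407 and 2808 counts in OE, as its labels say. Genes with enough counts for a test numbered 20528. The thresholds of the study were an adjusted p below 0.01 and a log2 fold change past 0.5 in either direction. With them the quasi-likelihood test of edgeR, adjusted after Benjamini-Hochberg, called 0 of these genes (0% of tested genes). *RP5-998N21.4* itself was not called, at a log2 fold change of 6.11 and an adjusted p of 0.0109 in that test. At an unadjusted p under 0.05, 20.8% of tested genes passed, and 10.1% passed and were higher in OE. In each of the OE libraries the level was above that in both controls for 27.8% of tested genes, and the groups did not overlap, in either direction, in 55.4%. DESeq2, the tool the study names, gave an adjusted p under 0.01 for 13.8% of the same genes and called 8.77% of them once the fold limit was added. Groups that do not overlap were thus common in this table, and an exact permutation test of 2 libraries against 2 cannot go below 0.333 (two-sided).

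The 8 members on chromosome 6 were listed at 0 in all 4 libraries. *HLA-B* (chr6:31321649-31334844, hg19, minus strand) and *HLA-C* (chr6:31236526-31239907, minus strand), classical heavy chains that present peptides to T cells, had 7 and 9 transcripts in the table and no count in any of them. *HLA-E* (chr6:30457286-30461971, plus strand), which presents signal peptides to natural killer cells, and *HLA-F* (chr6:29690552-29706305, plus strand), a nonclassical heavy chain, had 3 and 17 transcripts, all at 0. *TAP1* (chr6:32812986-32821593, minus strand) had 4 transcripts at 0. *TAP2* stood under 2 gene IDs, with 4 transcripts (chr6:32789610-32806516, minus strand) and 1 transcript (chr6:32781544-32806599, minus strand), all at 0. *PSMB8* (chr6:32808494-32812456, minus strand) and *PSMB9* (chr6:32811913-32827628, plus strand), which replace catalytic subunits of the standard proteasome, had 5 and 6 transcripts at 0. In all, 56 transcripts of 9 gene IDs carried 0 counts. No member on chromosome 6 could therefore be compared between OE and vector control.

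The zeros extended to the genes around the members. The members span 3.14 Mb of chromosome 6 (chr6:29690552-32827628, hg19), and of the other 119 protein-coding genes in that span 112 were also at 0 in every library (94.1%). The nearest coding genes on either side with a mean of 5 CPM or more (CPM: counts over library size, scaled with TMM factors so that libraries of different depth compare) were *ZSCAN12*, with 566, 501, 882 and 1128 counts in vector control 1 and 2 and OE 1 and 2, and *BAK1*, with 756, 844, 1005 and 1242 counts. Between them, over 5.17 Mb (chr6:28367525-33540323), 166 of 179 coding genes were at 0 (92.7%), against 17.1% of the 809 coding genes on the rest of chromosome 6 and 17.9% on the other chromosomes. This stretch holds 0.922% of coding genes and took from 0.00110% to 0.00193% of the counts of coding genes in the 4 libraries. Its total was 216 and 227 counts in vector control libraries and 390 and 306 in OE. A stretch of the same width below it, with 72 coding genes, 12 of them at 0, had 37320 to 41913 counts per library, and the stretch above it, with 64 coding genes, 7 of them at 0, had 82076 to 106159. Of 632 windows of 1 Mb with at least 10 coding genes, 12 had 90% or more of their genes at 0, and 4 of the 12 lay here.

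**Figure D1:**
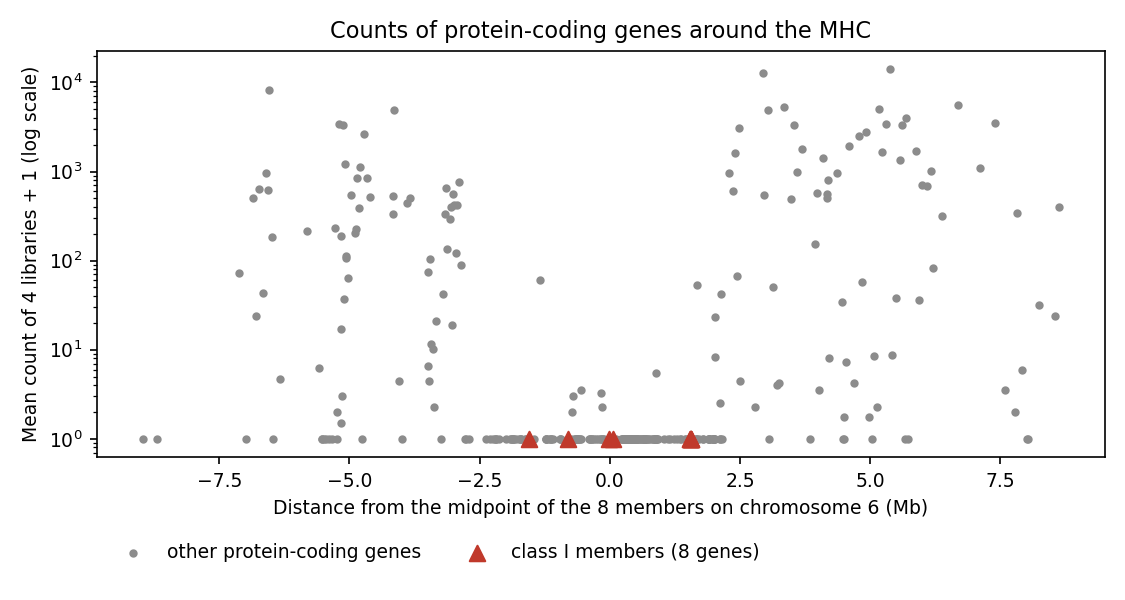
Mean count over the 4 libraries plus 1 (log scale) of each protein-coding gene against its distance in Mb from the midpoint of the 8 members on chromosome 6, with grey points for other genes and red triangles for the members, some of which overlap. All 8 members sit at a mean of 0, in a stretch of genes at 0 with counted genes on either side.

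The genes at 0 in that stretch include genes that nearly every cell uses. Chosen after their values were seen, *RPS18*, a ribosomal protein, *TUBB*, a tubulin, *DDX39B*, an RNA helicase, *BAG6*, a chaperone factor, *CSNK2B*, the regulatory subunit of casein kinase, *VARS*, the valine tRNA ligase, *FLOT1*, a membrane raft protein, and *HSPA1A*, a heat shock gene with a near-identical neighbouring copy, all had 0 counts in the 4 libraries. Of 80 ribosomal protein genes, 77 had at least 1 count in every library and 3 had 0, and *RPS18* was the single ribosomal protein gene in the stretch. The zeros of the 8 members are therefore reported as listed values only, with no limit, fold or comparison drawn from them. hg19 is distributed with and without extra sequences for alternative MHC haplotypes, and neither the form used nor the handling of reads that map to several places is given in the sources used here. Genes of the pseudoautosomal regions, which the reference holds on both X and Y, were also at 0, in 47 of 47 pairs of copies, including 19 of 19 protein-coding first copies. Whether duplicated reference sequence has a part in the zeros of chromosome 6 was not tested.

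A few features of the stretch did carry counts. The pseudogene *HLA-H* had 24, 22, 38 and 54 counts, and the pseudogene *HCG4P5* had 180, 135, 259 and 264 counts. Class I genes are close in sequence: of their aligned coding bases *HLA-B* and *HLA-C* shared 92.6%, and the other pairs among *HLA-B*, *HLA-C*, *HLA-E* and *HLA-F* shared 82.5% to 86.9%. Counts of these pseudogenes are thus uncertain, since the counting could split or drop reads that fit several of them.

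*B2M*, the light chain that every class I heavy chain needs at the surface, was the only member with counts and was abundant. It lies at chr15:45003556-45011049 (hg19, plus strand), and no other annotated gene overlaps its exons. It had 9744 and 9972 counts in vector control libraries and 13604 and 14737 counts in OE. This was 418 and 424 CPM in the vector control and 542 and 509 CPM in OE. The vector control libraries lay close together, the OE libraries lay further apart, and both OE libraries were above both vector control libraries.

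The mean *B2M* level was 421 ± 4.20 CPM in the vector control and 526 ± 23.1 CPM in OE (SD, n = 2 each), a ratio of 1.25. The log2 fold change was 0.32 (SE 0.0567), and its adjusted p of 0.107 (edgeR quasi-likelihood test, Benjamini-Hochberg over 20528 genes) did not pass the threshold, nor did its size pass the fold limit. At an unadjusted p under 0.05, 1 of the 9 members passed, and 1 of the 9 could be tested. *B2M* was 1 of the genes with both OE libraries above, a pattern seen in 27.8% of tested genes. The unadjusted p of *B2M* was 0.00593, and 1136 tested genes had a smaller one. DESeq2 gave a log2 fold change of 0.32 and an adjusted p of 1.335e-07 for *B2M*, still under the fold limit, so *B2M* was not called with either tool.

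The spread around the *B2M* estimate was small for this table: 0.911% of tested genes had a smaller standard error. Per kilobase of merged exons *B2M* stood at 152 CPM, with 351 of 19890 tested genes of known length higher. The merged exons of *B2M* cover 3121 bases, while its counted transcript ENST00000559720.1 has 1220 exon bases. The level per kilobase and the rank therefore depend on the length used. The *B2M* level was not set against those of its partner heavy chains, since their zeros carry no limit.

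The *B2M* counts came from 4 of its 12 listed transcripts, and almost all from a pair of them. ENST00000558401.1 was not found in the annotation used for positions. It took 71.6% and 71.3% of the counts in vector control libraries and 70.5% and 72.4% in OE. In the same order, the 95% Wilson intervals were 70.7 to 72.5, 70.4 to 72.2, 69.7 to 71.3 and 71.6 to 73.1%. ENST00000559720.1, annotated as a retained intron transcript, took 28.4% and 28.7% in the vector control and 29.5% and 27.6% in OE. The OE libraries lay on either side of both vector control libraries in these shares, so the split between the transcripts did not separate the groups. Without molecular identifiers on the reads, the intervals cover no more than counting error.

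Over the 4 libraries, the genes whose profile was most like that of *B2M* were *AC010642.1*, *H3F3C* and the ribosomal protein pseudogene *RPS4XP1*. Likeness was the sum of squared differences of centred log2 CPM, which was 0.000287, 0.000372 and 0.000524 for these, among 11457 genes averaging 10 CPM or more. In all, 214 of those 11457 genes were within 0.01 of *B2M*, so the order among the closest says little with 4 libraries. The counts of *H3F3C*, a histone gene with close paralogs, and of *RPS4XP1* are uncertain, since reads of their parent genes could fall on them. *H3F3C* had 481 and 487 CPM in the vector control and 619 and 576 CPM in OE.

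The rest of the pathway lies mostly outside the MHC, and 75 further genes in 8 lists were examined. Of these, 14 were at 0 in all libraries and 60 could be tested. Both OE libraries were above both vector control libraries in 15 of the 60 and below in 14, and the groups overlapped in 31. edgeR called 0 of the 60, and DESeq2 called 3 of them (*PSMA6* and *ULBP1* higher, *THOP1* lower in OE), beside 8.77% of all tested genes. At an unadjusted p under 0.05, 6 were higher and 7 lower in OE. The median log2 fold change was −0.02, beside 0.01 over all tested genes. The 13 of 60 genes with an unadjusted p under 0.05 stood beside 20.8% of all tested genes, and the 29 of 60 with no overlap beside 55.4%.

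**Figure D2:**
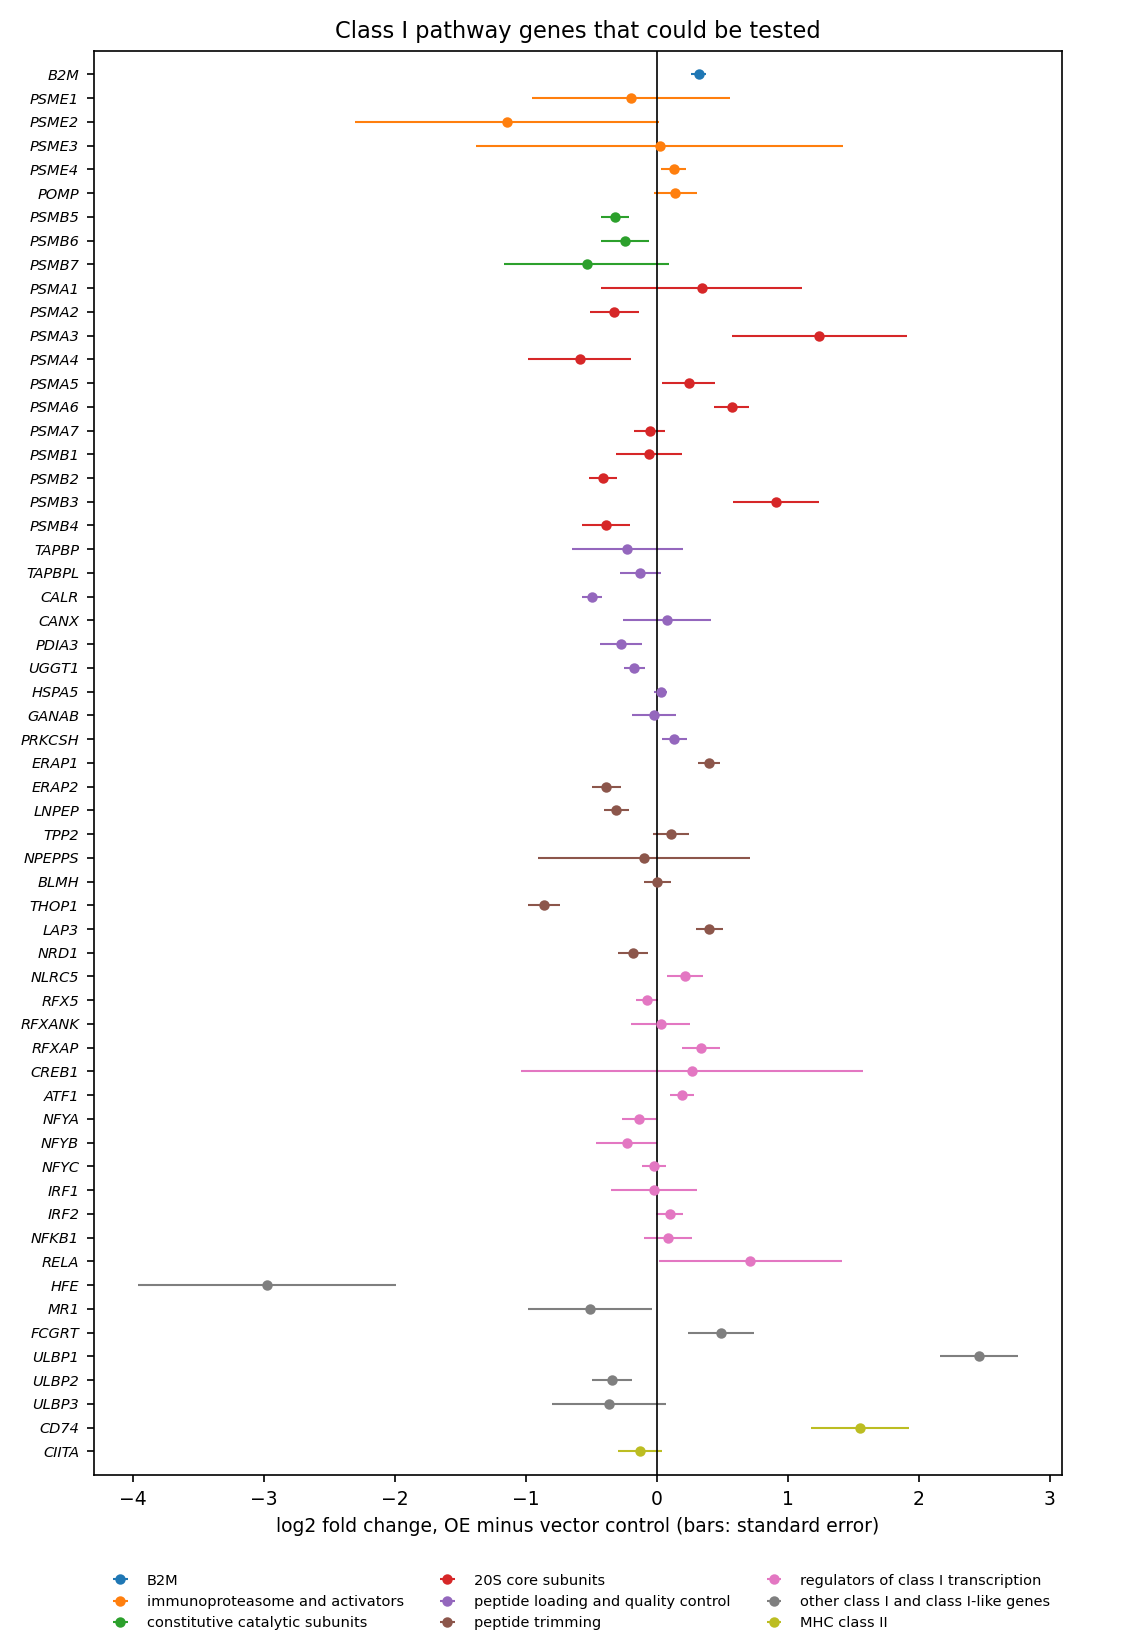
Log2 fold change, OE minus vector control, of *B2M* and 58 of the 60 testable genes of the 8 pathway lists, coloured by list, with bars for the standard error of the edgeR fit. Most genes lie near 0 on either side, *ULBP1* at 2.46 and *HFE* at −2.98 are the farthest out, and *B2M* at 0.32 has a short bar.

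The immunoproteasome outside the MHC was weakly represented. *PSMB10*, the remaining inducible catalytic subunit, had 0 and 12 counts in vector control libraries and 2 and 0 in OE and was not tested. *PSME1* and *PSME2*, the subunits of the interferon-inducible proteasome activator, varied widely within groups. *PSME1* had 73 and 181 counts in vector control libraries and 180 and 67 in OE, and *PSME2* had 44 and 466 in the vector control and 148 and 114 in OE. Their log2 fold changes of −0.20 and −1.14 changed sign when single libraries were left out, and the edgeR adjusted p was 0.912 and 0.633. Of the 5 tested genes of this list, 1 had both OE libraries above (27.8% of all tested genes) and 4 overlapped, with a median log2 fold change of 0.02.

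The standard catalytic subunits, which the immunoproteasome subunits replace, were all measured. *PSMB5*, the chymotrypsin-like subunit and the counterpart of *PSMB8*, had 1032 and 967 counts in vector control libraries and 822 and 1033 in OE. After scaling this was 42.7 ± 2.24 CPM against 34.2 ± 2.09 CPM (SD, n = 2 each), with both OE libraries below. The log2 fold change of *PSMB5* was −0.32 (edgeR adjusted p = 0.221), and it was 0.10 when the transcript with the highest mean count replaced the sum over transcripts. *PSMB6*, the counterpart of *PSMB9*, had a log2 fold change of −0.25 (edgeR adjusted p = 0.514). *PSMB7*, the counterpart of *PSMB10*, had 383 and 450 counts in vector control libraries and 142 and 546 in OE, and the groups overlapped (log2 fold change −0.54, edgeR adjusted p = 0.684).

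Of 11 other subunits of the proteasome core, 3 had both OE libraries above, 3 below and 5 overlapped, with a median log2 fold change of −0.05. Over all tested genes 27.8% were above and 55.4% did not overlap, so the count was near that share. *PSMA6*, an alpha ring subunit, had 201 and 210 counts in vector control libraries and 343 and 360 in OE (log2 fold change 0.57, edgeR adjusted p = 0.145). *PSMB2*, a beta ring subunit, had 2046 and 2302 counts in vector control libraries and 1831 and 1937 in OE (log2 fold change −0.41, edgeR adjusted p = 0.166). Neither was called with edgeR, while DESeq2 called *PSMA6* (log2 fold change 0.57, adjusted p = 0.00306) and left *PSMB2* under the fold limit.

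In the loading and quality control list, *CALR* was the only gene at an unadjusted p under 0.05. Calreticulin, its product, holds empty heavy chain and B2M pairs in the loading complex. *CALR* had 525 and 562 CPM in the vector control and 404 and 367 CPM in OE, so both OE libraries were below. Its mean was 543 ± 26.1 CPM against 385 ± 26.6 CPM (SD, n = 2 each), with a log2 fold change of −0.50 (SE 0.0779, edgeR adjusted p = 0.0939). Per kilobase of merged exons *CALR* and *B2M* stood at 166 and 152 CPM, and their differences had opposite signs. How close these levels are depends on the length used for *B2M*. *TAPBP*, which encodes tapasin, the bridge from the transporter to the heavy chain, lies in the stretch of zeros and had 17, 28, 24 and 20 counts, so its log2 fold change of −0.23 (edgeR adjusted p = 0.806) rests on few reads. Of the 9 genes in the list, 1 had both OE libraries above, 3 below and 5 overlapped, beside 55.4% of all tested genes with no overlap.

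Of the pathway lists, the peptidases that trim or destroy class I peptides had the most genes under an unadjusted p of 0.05. Of these 9, 2 were higher and 3 lower, beside 20.8% of all tested genes in either direction. *ERAP1*, which trims peptides in the endoplasmic reticulum, had 40.7 and 40.0 CPM in the vector control and 53.7 and 52.8 CPM in OE. Its log2 fold change was 0.40 (SE 0.0854, edgeR adjusted p = 0.130). *ERAP2*, its neighbour and partner enzyme, had 166 and 141 CPM in the vector control and 118 and 116 CPM in OE, a log2 fold change of −0.38 (edgeR adjusted p = 0.186). The neighbouring enzymes thus differed in sign, though neither was called with edgeR or DESeq2.

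*LNPEP*, an aminopeptidase of the endosomal route to class I, was 152 ± 5.45 CPM in the vector control and 123 ± 10.6 CPM in OE (SD, n = 2 each), with a log2 fold change of −0.31 (edgeR adjusted p = 0.208). *THOP1*, a cytosolic peptidase that degrades class I peptides, had 1059 and 1184 counts in vector control libraries and 623 and 811 in OE. It had a log2 fold change of −0.86 (SE 0.121), with an adjusted p of 0.0839 with edgeR and 8.64e-09 with DESeq2, which called it. With the transcript of highest mean count in place of the sum, the log2 fold change of *THOP1* was −0.36. *LAP3*, a cytosolic leucine aminopeptidase, had 394 and 415 counts in vector control libraries and 582 and 651 in OE (log2 fold change 0.40, edgeR adjusted p = 0.168).

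**Figure D3:**
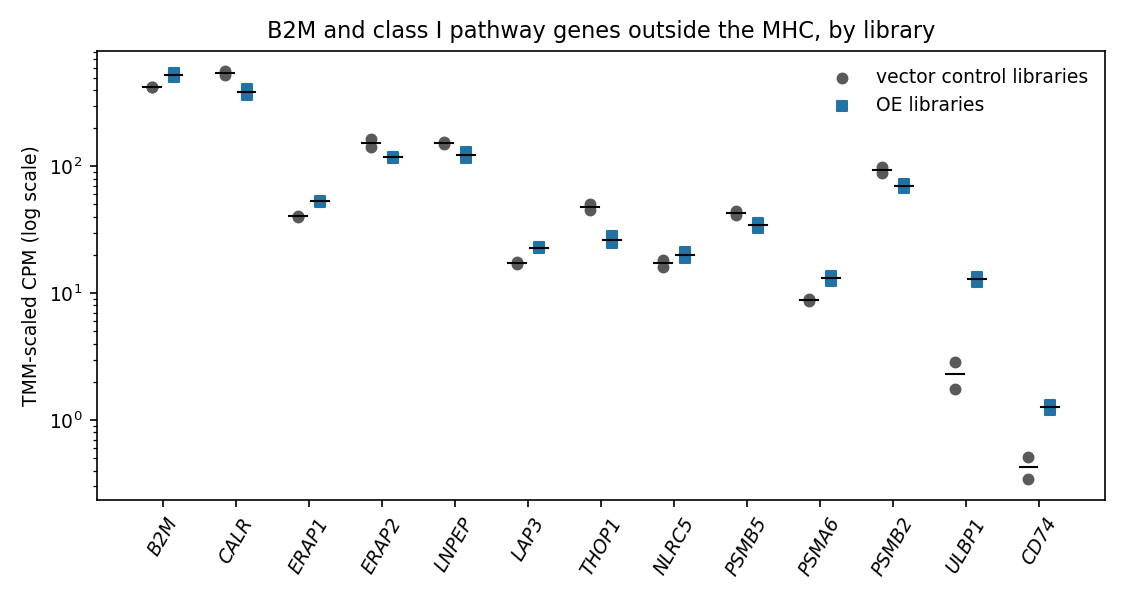
TMM-scaled CPM (log scale) of *B2M* and 12 further pathway genes in each library, with grey circles for the 2 vector control libraries, blue squares for the 2 OE libraries and a bar at each group mean. *B2M*, *ERAP1*, *LAP3*, *NLRC5*, *PSMA6*, *ULBP1* and *CD74* have both OE libraries above both vector control libraries, while *CALR*, *ERAP2*, *LNPEP*, *THOP1*, *PSMB5* and *PSMB2* have both below.

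Among 14 regulators of class I transcription, 5 had both OE libraries above (27.8% of all tested genes) and 9 overlapped, with a median log2 fold change of 0.09. *NLRC5*, the transactivator of class I promoters, had 18.4 and 16.0 CPM in the vector control and 19.0 and 21.0 CPM in OE (log2 fold change 0.22, edgeR adjusted p = 0.448). *IRF1*, which binds the IRF core, had 75.7 and 77.3 CPM in the vector control and 97.8 and 53.3 CPM in OE, so the OE libraries lay on either side of the controls (log2 fold change −0.02, edgeR adjusted p = 0.980).

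The class I-like genes included the highest positive and the lowest negative log2 fold change of the pathway lists. *ULBP1*, a stress ligand for the natural killer cell receptor NKG2D, had 41 and 68 counts in vector control libraries and 310 and 386 in OE. This was 2.33 ± 0.801 CPM against 12.8 ± 0.700 CPM (SD, n = 2 each), a ratio of 5.51. The log2 fold change of *ULBP1* was 2.46 (SE 0.300), and its adjusted p was 0.0749 with edgeR, which missed the threshold, and 6.05e-14 with DESeq2, which called it. *HFE*, an iron-regulating class I-like gene, had 10 and 46 counts in vector control libraries and 3 and 5 in OE (log2 fold change −2.98, edgeR adjusted p = 0.224), and the log2 fold change was −1.52 without vector control replicate 2. Of the 11 genes in this list, 4 were at 0 and 7 could be tested.

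Of 12 MHC class II genes, which present peptides from outside the cell, 10 were at 0, all of them in the same stretch of chromosome 6. *CD74*, the invariant chain on another chromosome, had 12 and 8 counts in vector control libraries and 33 and 35 in OE. It had a log2 fold change of 1.55 (edgeR adjusted p = 0.151) at about 1 CPM.

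Markers of neuroblastoma cell state were examined beside the pathway. edgeR called 0 of them. Of 10 adrenergic neuroblastoma markers, 1 was at 0 (*TH*, the tyrosine hydroxylase gene) and the other 9 all had both OE libraries above both vector control libraries, a pattern of 27.8% of all tested genes, with a median log2 fold change of 1.01, 7 higher at an unadjusted p under 0.05 (10.1% of all tested genes) and 6 called with DESeq2 (8.77% of all tested genes). Their summed level was 410 and 479 CPM in the vector control and 758 and 731 CPM in OE. The log2 fold change was 0.47 for *HAND2*, 0.96 for *GATA3* and 0.67 for *TFAP2B*, all transcription factors of this lineage, 0.82 for *DBH*, an enzyme of noradrenaline synthesis, and 1.64 for *DLK1*, a Notch pathway ligand, with edgeR adjusted p from 0.0707 to 0.110. Of 10 mesenchymal markers, 8 had both OE libraries below, 1 above and 1 overlapped, beside 55.4% of all tested genes with no overlap. The median log2 fold change was −0.55, with 5 at an unadjusted p under 0.05 (20.8% of all tested genes in either direction) and 3 called with DESeq2 (8.77%), all lower. Their summed level was 3502 and 3460 CPM in the vector control and 3747 and 2228 CPM in OE. *VIM*, the vimentin gene and the 1 marker above in OE, had 348 and 350 CPM in the vector control and 1254 and 376 CPM in OE, so OE replicate 1 alone was far from the rest (log2 fold change 1.22, edgeR adjusted p = 0.367). *CD44*, a mesenchymal surface marker, had a log2 fold change of −0.71 (edgeR adjusted p = 0.0615). The other 4 at an unadjusted p under 0.05 were the transcription regulators *PRRX1* (log2 fold change −0.64), *SNAI2* (−0.68) and *YAP1* (−0.27) and the receptor *NOTCH3* (−0.47), with edgeR adjusted p from 0.0780 to 0.194. A different mix of cells and a different amount of RNA per cell cannot be told apart in these bulk samples. The part that these markers have in the *B2M* difference was not tested.

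Leukocyte markers were low in every library. Of 8, 4 were at 0 in all libraries (among them *CD3E*, *MS4A1* and *LYZ*), and *PTPRC*, the pan-leukocyte marker, had 0, 0, 0 and 4 counts. Their summed level was 11.4 and 11.2 CPM in the vector control and 0.996 and 5.81 CPM in OE. This sum rests on *CD68*, a macrophage marker that other cells also express, with 240, 237, 2 and 126 counts, while *ITGAM*, an integrin of myeloid cells, had 0, 0, 8 and 4. The part of other cell types in the *B2M* difference was not tested.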

How the data were processed

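RNA-seq libraries of SK-N-SH cells (2 vector control, 2 OE) were grouped by the treatment label. The control titles read WT, and the treatment label and the methods name the empty vector. The authors checked reads with FastQC, trimmed them with Trimmomatic, mapped them to hg19 with Bowtie2, which does not split reads across introns, and deposited raw counts per transcript. The submitters' processing notes name Bowtie2 2.0.4, Picard 2.21.6, StringTie 2.1.6 and DESeq2. The counting step, annotation release and use of strand are not given in the sources used here.

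Counts were summed per gene ID, filtered with filterByExpr, scaled by TMM and tested with edgeR 4.0.16 (quasi-likelihood, Benjamini-Hochberg, two-sided, no covariates) in R 4.3.3. The fits were tested on simulated counts with known changes. Alternatives used DESeq2 1.42.0 and limma 3.58.1 (voom), RLE or upper-quartile scaling, other filters, a replicate block, single libraries left out, the transcript with the highest mean count, and an adjusted p under 0.05. Positions came from GENCODE release 44 lifted to GRCh37 (hg19), and promoters from RefSeq. Coding identity was measured with Biopython 1.88 on the longest open reading frame.

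The members and lists were chosen with earlier results of these data known. The genes named were the members, every listed gene with an unadjusted p under 0.05, 12 fixed pathway genes, the overexpressed gene, and the 3 genes with the profile most like that of the members. Genes named outside this rule are described as chosen after their values were seen, or are flanking, marker or class I genes that locate the zeros. With 1 member tested, a median over the members was not given. Some genes that this rule names are not reported here, and they were left out of the plots with gene labels.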

Additional observations from a re-analysis of the deposited data

How the results depend on the processing

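The log2 fold change of *B2M* was between 0.27 and 0.36 over 12 alternatives, with an unadjusted p under 0.05 in each and an adjusted p from 1.335e-07 (DESeq2, log2 fold change 0.32) to 0.310. The latter came from the replicate block (log2 fold change 0.32). The labels do not say whether replicate numbers pair the libraries. The correlation of deviations of same-numbered libraries was −0.02 over 20528 genes, which cannot settle this with 2 libraries per group. Leaving out single libraries gave 0.27 to 0.36. Members called stayed at 0 in all alternatives.

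Genes called across the table numbered 0, but 1800 with DESeq2, 9 with a minimum of 1 count in total, 1 with the transcript of highest mean count and 122 at an adjusted p under 0.05. The cause was not tested. Alternatives were run for the 33 named genes, not for every listed gene, and signs turned in 6 of them. With single libraries left out the log2 fold change ran from −1.22 to 0.59 for *PSME1* (0.59 without vector control replicate 2, 0.40 without OE replicate 2), −2.02 to 1.37 for *PSME2* (1.37 without vector control replicate 2), −1.65 to 0.0853 for *PSMB7* (0.0853 without OE replicate 1), −0.54 to 0.16 for *TAPBP* (0.16 without vector control replicate 2) and −0.52 to 0.35 for *IRF1* (0.35 without OE replicate 2). With the transcript of highest mean count *PSMB5* was at 0.10, *IRF1* at 0.36, *PSME1* at −2.44 (summed counts −0.20) and *TFAP2B* at 1.64 (summed counts 0.67), and with upper-quartile scaling *IRF1* was at 0.0206. Depth was not a limit for *B2M*, with at least 9744 counts in each library, and the zeros on chromosome 6 could not be read as low expression.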
